A study of Mus musculus with 2 samples.

Results

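The ID and basic helix-loop-helix genes were examined in Venus High and Venus Low luminal cells of the mouse mammary gland. A list of 54 genes of this superfamily was taken, and a probe set paired with the symbol of 1 listed gene alone was found for 40 of them, among 13869 genes in the value table. The cells came from 3 pooled Tbx3-Venus-KI females, virgin, aged 5 months and on an FVB background, and both populations were therefore heterozygous for Tbx3, with Venus, a yellow fluorescent protein, in place of 1 Tbx3 allele. Venus reports activity of the Tbx3 locus in these mice. Dead cells, CD45+ cells and stromal cells were removed, luminal cells were gated on CD24 and CD49f, and 200000 cells of high and 200000 of low or no Venus fluorescence were sorted. Labelled cRNA made from total RNA of each population was hybridized on 1 Affymetrix GeneChip mouse genome array. The differences below therefore have no replicate check and carry no p-value.

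The values are log2 array signals with a floor at a signal of 10, which is 3.32 on the log2 scale. The table holds 0 probe sets that were lower in Venus High cells, so every difference in it is 0 or above, and members of the opposite direction are not analysed here. Each gene is described on whichever of its probe sets had the highest mean log2 value, and was counted as higher only when its higher signal reached 100 (6.64 on the log2 scale). The pooled SD of the difference between probe sets of a gene was 0.31 on the log2 scale over 1062 genes, which covers spread within this pair of arrays and none between animals. Signals of different probe sets are not comparable as levels, so only the populations were compared.

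Proteins of this superfamily bind DNA as dimers through a basic region and pair through a helix-loop-helix. E proteins are broadly expressed partners of lineage factors, and ID proteins, which lack the basic region, pair with E proteins and keep them from DNA. HES and HEY proteins are repressors that act downstream of Notch receptors. MYC and MXD proteins compete for MAX, and the PAS group includes the circadian factor CLOCK, the hypoxia factor HIF1A and the aryl hydrocarbon receptor. In the mammary gland ID and Notch target genes are known for their part in the choice between luminal and basal fates and in alveolar development.

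The Venus High population had the higher values of the hormone receptor genes Esr1 and Pgr. Of 10 markers of hormone-sensing cells, 7 were in the table, and Prlr, Ly6a and Areg are not analysed here. No marker in the table could be lower in Venus High cells, so only the size of a difference is informative. All 7 were at least 4-fold higher, where 8.58% of the 3847 genes that reached a signal of 100 were. Their summed signal was 16187 in Venus High against 541 in Venus Low cells. Tbx3, 1 of the 7, is not an independent marker, because the cells were sorted on the reporter of its locus. It had log2 signals of 8.72 in Venus High against 3.62 in Venus Low cells, the latter near the floor. The difference was 5.10, or 2.07 with the floor at 100, and the 5 probe sets of Tbx3 spanned 0 to 5.10. The 3 probe sets of Esr1 spanned 0.42 to 3.42, and the 3 of Pgr 1.27 to 6.88. The pan-luminal markers Krt8, Cd24a, Krt19 and Krt7 were above a signal of 100 on both arrays. They differed by 0.09, 0.78, 0.98 and 3.70, so Krt7 was more than 4-fold higher in Venus High cells. Krt18 and Epcam are not analysed here. Of 9 basal markers, 6 were in the table, and of 8 immune markers, 5. All of these, Krt14, Acta2 and Ptprc among them, were at the floor on both arrays. Of 6 fibroblast markers, 5 were in the table and 0 had a signal of at least 100, with summed signals of 110 in Venus High against 72.5 in Venus Low cells, of which Dcn had log2 signals of 6.01 in Venus High against 4.89 in Venus Low cells. Of 5 endothelial markers, 3 were in the table and 0 had a signal of at least 100, with summed signals of 33.7 in Venus High against 30 in Venus Low cells. The 10 alveolar markers, Elf5 and Kit among them, are not analysed here, so the identity of the Venus Low cells was not checked on these values. The part of any other cell type in the differences below was not tested.

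Id3 was the 1 member with a difference of 4-fold or more in favour of Venus High cells, and Clock, Hif1a and Mxd1 were at least 2-fold higher. A signal of 100 was reached by 12 of the 40 members with a probe set. At least 4-fold, the share was 1 of these 12, where 8.58% of the 3847 genes that reached this signal were as much higher. At least 2-fold, it was 4 of 12, where 21.6% of all genes were. The median difference of the 12 members was 0.94 on the log2 scale, against 0.46 over all 3847 genes, and 9 of the 12 lay above that median. This gap of 0.47 was 0.19 when each gene was given the median of its probe sets, where only 9 members and 2873 genes reached the signal. It was -0.02 with no signal minimum, where 22 of 40 members lie at the floor on both arrays. Members that reach a signal of 100 only in Venus High cells enter these counts through the population in which they are high, and members missing from the table do not enter them at all.

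**Figure D1:**
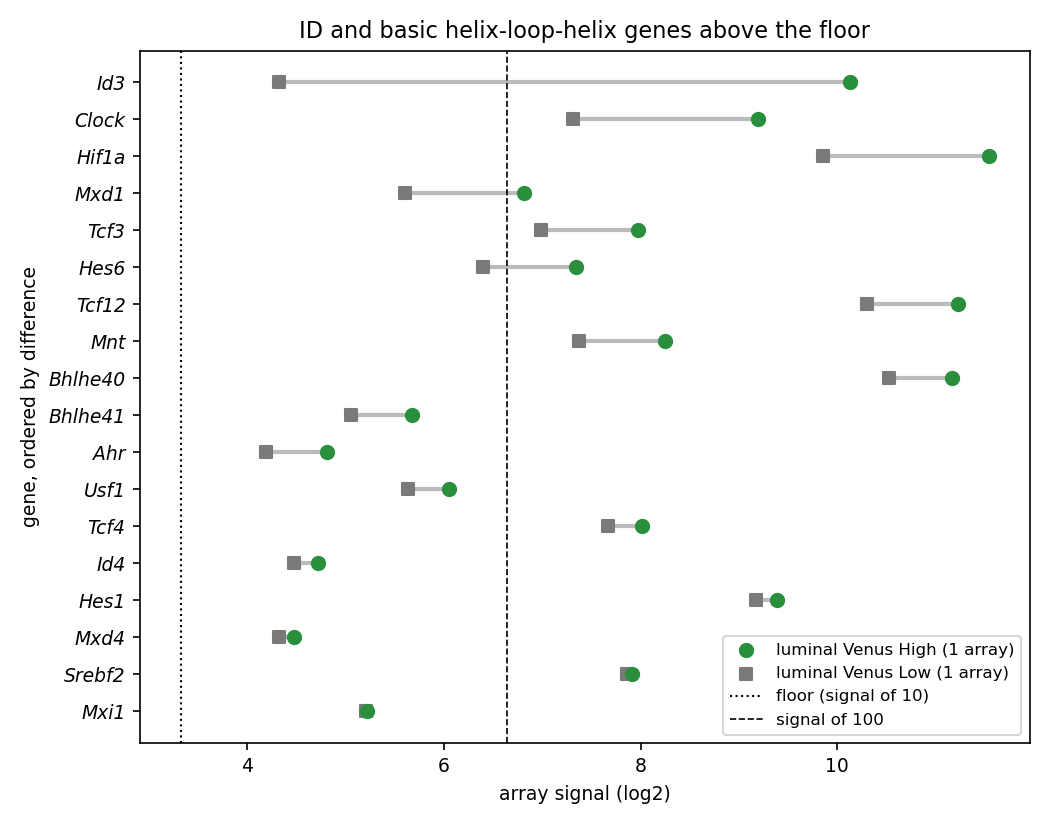
Array signal (log2, horizontal axis) of the members above the floor, ordered by difference, with Venus High cells as green circles and Venus Low cells as grey squares (1 array each). A dotted line stands at the floor and a dashed line at a signal of 100, and Id3 has the widest gap, with 10.14 in Venus High against 4.33 in Venus Low cells.

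The upstream sequences of the 4 members that were at least 2-fold higher are shown so that the binding motifs of the superfamily itself can be located in them. The 250 bases before the first transcription start listed for each gene were taken from RefSeq (GRCm38.p6). They lie at chr4:136143572-136143821 on the plus strand for Id3, chr5:76304793-76305042 on the minus strand for Clock, chr12:73907617-73907866 on the plus strand for Hif1a and chr6:86669160-86669409 on the minus strand for Mxd1. Capitals mark the E-box CANNTG, which basic helix-loop-helix dimers bind, and the N-box CACNAG, which HES proteins bind, on either strand.
Id3: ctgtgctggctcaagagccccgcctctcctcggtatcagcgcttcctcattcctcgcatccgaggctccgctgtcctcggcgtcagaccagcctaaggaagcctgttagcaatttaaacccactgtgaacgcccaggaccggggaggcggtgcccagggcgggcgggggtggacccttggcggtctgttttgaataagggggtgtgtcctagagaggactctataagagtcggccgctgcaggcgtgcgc
Clock: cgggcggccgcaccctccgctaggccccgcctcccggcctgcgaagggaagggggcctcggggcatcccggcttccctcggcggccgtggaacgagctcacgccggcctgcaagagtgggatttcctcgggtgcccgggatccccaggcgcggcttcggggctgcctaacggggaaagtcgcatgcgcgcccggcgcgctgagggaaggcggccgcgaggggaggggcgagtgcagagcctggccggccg
Hif1a: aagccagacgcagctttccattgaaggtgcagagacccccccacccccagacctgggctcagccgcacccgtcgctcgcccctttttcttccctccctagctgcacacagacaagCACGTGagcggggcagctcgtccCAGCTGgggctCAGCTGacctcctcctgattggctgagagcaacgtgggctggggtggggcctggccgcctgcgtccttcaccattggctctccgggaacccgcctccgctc
Mxd1: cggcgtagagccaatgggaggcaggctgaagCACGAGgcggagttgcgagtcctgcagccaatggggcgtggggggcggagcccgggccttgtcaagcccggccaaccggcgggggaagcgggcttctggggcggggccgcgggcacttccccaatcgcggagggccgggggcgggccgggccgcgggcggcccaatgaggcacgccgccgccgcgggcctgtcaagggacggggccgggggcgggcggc

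The window of Hif1a held 3 matches to CANNTG, and that of Mxd1 held 1 match to CACNAG. The match nearest the far end of the Hif1a window, which begins at position -135 from the transcription start, is the palindrome CACGTG, a special case of CANNTG that MYC, USF and CLOCK dimers prefer. The windows of Id3 and Clock held no match to either motif, which says only that these letters are not in these 250 bases. Windows were found for 40 of the 54 members, and 23 of these 40 held CANNTG, or 57.5%, against 66.0% of 27025 gene windows of the same length. CACGTG was in 4 of the 40, or 10%, against 6.05% of all windows, and CACNAG in 11 of the 40, or 27.5%, against 36.7%. The BMP response motif GGCGCC was in 9 of the 40, or 22.5%, against 9.54% of all windows, and in 0 of the 9 windows of members that reached a signal of 100. The windows compared were not matched for base composition, on which the share of such a motif depends. The 4 windows shown hold from 62.8% (Id3) to 78.4% (Mxd1) G and C, against a median of 52% over all windows. A match is a description of the letters and not evidence of binding.

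Of the ID genes, Id3 differed and Id4 was low on both arrays. Id3, which encodes an inhibitor of E proteins and is a target of BMP signaling in many cell types, had log2 signals of 10.14 in Venus High against 4.33 in Venus Low cells. The difference was 5.81, or 56.0-fold, on its 1 probe set in the table. It ranked 38 among the 3847 genes and was larger than that of 99.0% of them. The Venus Low value lies near the floor, so the size of the fold depends on it, and with the floor at a signal of 100 the difference was 3.49. Id4, known in the mammary gland from basal cells, had 4.72 in Venus High against 4.48 in Venus Low cells and did not reach a signal of 100. Id1 and Id2, the other genes of the subfamily, are not analysed here, so nothing is said of the ID genes as a group.

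The E protein genes, whose products are held from DNA by ID proteins, were all above a signal of 100 on both arrays. Tcf3, which encodes E12 and E47, had log2 signals of 7.98 in Venus High against 6.99 in Venus Low cells, a difference of 0.99, just under 2-fold. Tcf12, which encodes HEB, had 11.23 in Venus High against 10.31 in Venus Low cells, a difference of 0.93. Tcf4, which encodes E2-2, had 8.01 in Venus High against 7.67 in Venus Low cells, a difference of 0.34, larger than that of 38.5% of genes. The differences of Tcf4 were close in size, with 4 of 5 probe sets between 0.19 and 0.34 and the fifth at the floor on both arrays. The probe sets of Tcf12 were further apart. Of its 5 probe sets, 3 differed by 1.16, 1.20 and 1.24 and 1 by 0.23, so Tcf12 lies on both sides of 2-fold depending on the probe set. The other probe sets of Tcf3 differed by 0.72 and by at least 1.23, the last with the Venus Low value at the floor.

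**Figure D2:**
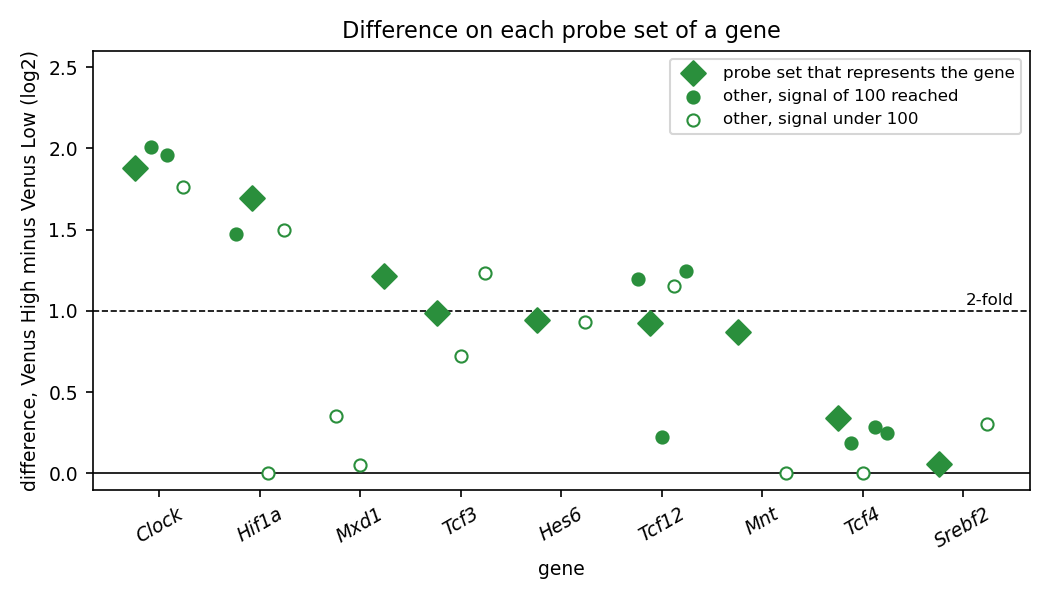
Difference between Venus High and Venus Low luminal cells (log2, vertical axis) on each probe set of the 9 members that reached a signal of 100 and have at least 2 probe sets. Diamonds mark the probe set that represents the gene, filled circles other probe sets that reached a signal of 100, and open circles those that did not. The probe sets of Clock lie between 1.76 and 2.01, while those of Tcf12 span 0.23 to 1.24 and those of Mxd1 0.05 to 1.21.

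Hes1, the classical repressor downstream of Notch, differed little between the populations. Its log2 signals were 9.39 in Venus High against 9.17 in Venus Low cells, a difference of 0.21 that is smaller than the SD between probe sets. Hes6, which encodes a relative that opposes HES1, had 7.35 in Venus High against 6.40 in Venus Low cells, a difference of 0.95, and 0.93 on its other probe set. Both probe sets of Hes6 have the suffix _x_at or _a_at, by which the manufacturer marks probes that may bind other transcripts or that are shared between transcripts of a gene. Hes5, Hes7 and Heyl lay at the floor on both arrays, and Hey1 and Hey2 are not analysed here. Of 33 other genes of the Notch pathway, 22 were in the table, 9 had a signal of at least 100, and 4 of these 9 were 2-fold or more higher in Venus High cells, where 21.6% of all genes were. Jag1, a Notch ligand, had 8.92 in Venus High against 5.26 in Venus Low cells (3.66, or 2.28 with the floor at 100), and its 3 probe sets spanned 1.25 to 3.66. Adam10, the protease that makes the first activating cut in Notch, had 11.56 in Venus High against 9.44 in Venus Low cells (2.13), and its 4 probe sets spanned 0, with the floor on both arrays, to 2.56. Dtx4, which encodes an E3 ligase of the Deltex family, had 7.10 in Venus High against 5.00 in Venus Low cells (2.10, or 0.46 with the floor at 100), and 1.15 on its other probe set. The median of the 9 genes was 0.34, below the 0.46 of all genes. Rbpj, which encodes the DNA-binding partner of Notch, differed by 0.02, and the receptor genes Notch1, Notch2 and Notch3 are not analysed here.

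Of 28 genes of the BMP pathway, which induces ID genes in many cell types, 18 were in the table and 5 had a signal of at least 100. Of the 5, 0 were at least 2-fold higher, where 21.6% of all genes were. The median of the 5 was 0.17. Of these 5, the receptor gene Bmpr1a had the widest gap, with 8.83 in Venus High against 8.21 in Venus Low cells (0.62). Smad5 differed by 0.31 and Bmpr2 by 0.17. Bmpr1b, another receptor gene, did not reach a signal of 100, with 5.58 in Venus High cells against the floor in Venus Low cells on 1 of its 3 probe sets.

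Among the genes of the PAS group, Clock and Hif1a had the largest differences. No probe set in the table could be lower in Venus High cells, so only the sizes on their other probe sets are informative. Clock, which encodes the partner of BMAL1 that drives the PER and CRY genes, had log2 signals of 9.20 in Venus High against 7.31 in Venus Low cells. The difference was 1.88, or 3.68-fold, larger than that of 90.9% of genes, with 1.76, 1.96 and 2.01 on the 3 other probe sets. The last of these lies just above 4-fold and the representing probe set just below it. Hif1a, which encodes the oxygen-sensitive subunit of the hypoxia factor HIF-1, had 11.55 in Venus High against 9.85 in Venus Low cells. The difference was 1.69, or 3.23-fold, larger than that of 89.3% of genes. The Hif1a probe sets above the floor differed by 1.47 to 1.69, and the fourth was at the floor on both arrays. Ahr, the aryl hydrocarbon receptor, had 4.81 in Venus High against 4.19 in Venus Low cells, under a signal of 100. Npas2, a relative of Clock, and Sim1 and Sim2 were at the floor on both arrays. Arnt, whose product pairs with HIF1A and AHR, and Epas1, which encodes HIF2A, are not analysed here.

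The DEC repressors, which feed back on the clock, are encoded by Bhlhe40 and Bhlhe41. Bhlhe40, the gene of DEC1, had log2 signals of 11.17 in Venus High against 10.52 in Venus Low cells, a difference of 0.65. Bhlhe41, which encodes DEC2, had 5.68 in Venus High against 5.05 in Venus Low cells on a probe set under a signal of 100, and was at the floor on another. Of 18 clock genes, 9 were in the table and 6 had a signal of at least 100, with a median of 0.29. Of these 6, 1 was at least 2-fold higher, where 21.6% of all genes were. This was Nfil3, a repressor of D-box genes, with 9.87 in Venus High against 6.40 in Venus Low cells (3.47, or 3.23 with the floor at 100). Cry2 differed by 0.77 and Csnk1e by 0.49, with up to 1.54 over its 3 probe sets. Of 16 genes of the hypoxia response, 9 were in the table and 7 had a signal of at least 100, with a median of 0.30. Of these 7, 1 was 2-fold or more higher, where 21.6% of all genes were. This was Vegfa, the angiogenic growth factor, with 8.35 in Venus High against 6.48 in Venus Low cells (1.87), and 0.64 on its other probe set. Vhl, which targets HIF1A for degradation, differed by 0.51, and Bnip3 by 0.40. Of 7 genes of the aryl hydrocarbon receptor response, 5 were in the table and Tiparp alone reached a signal of 100, with a difference of 0.27.

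**Figure D3:**
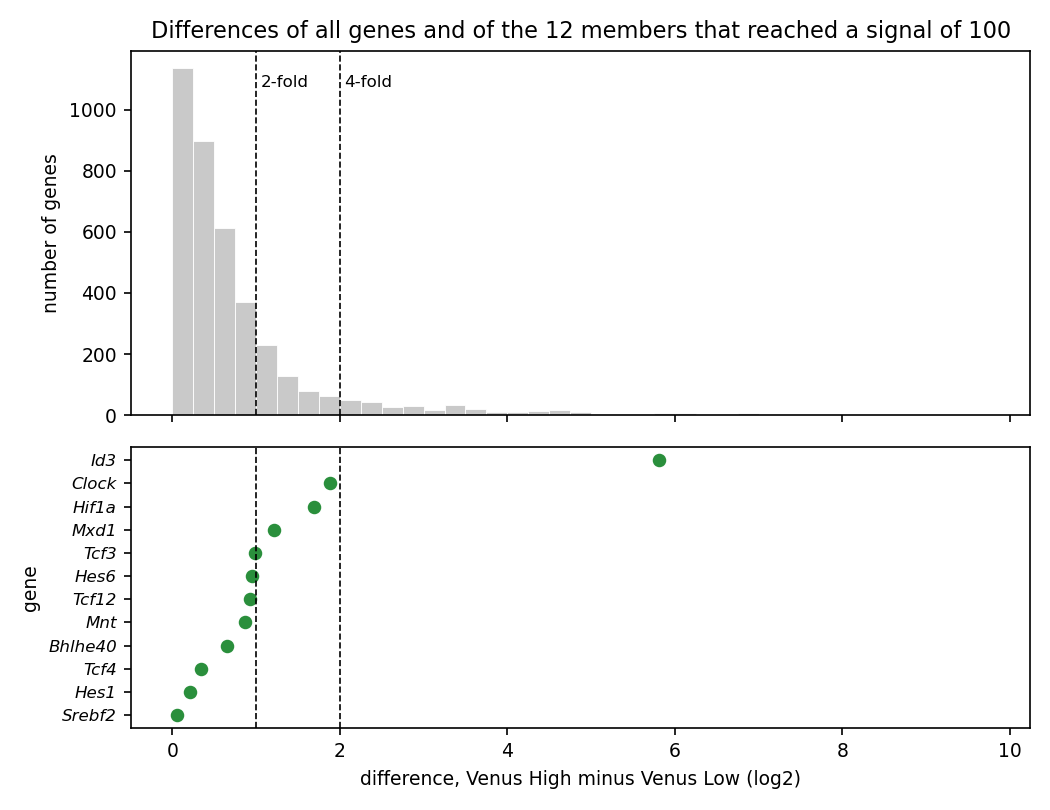
Distribution of the difference between Venus High and Venus Low luminal cells (log2, horizontal axis) over the 3847 genes that reached a signal of 100 (upper panel, number of genes per bin) and the difference of each of the 12 members among them (lower panel, green circles). Dashed lines mark 2-fold and 4-fold, and Id3 at 5.81 lies apart from the other 11 members, which lie between 0.06 and 1.88.

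In the MAX network, the repressors Mxd1 and Mnt reached a signal of 100. Mxd1, which pairs with MAX to repress MYC targets, had log2 signals of 6.82 in Venus High against 5.6 in Venus Low cells, a difference of 1.21, or 2.32-fold. Its other probe sets differed by 0.05 and 0.35, below a signal of 100, and with the floor at 100 the difference was 0.17. The 2-fold count of Mxd1 therefore rests on 1 probe set just above this signal. Mnt, a related repressor, had 8.25 in Venus High against 7.37 in Venus Low cells, a difference of 0.87, and its other probe set was at the floor on both arrays. Mxi1 had 5.22 in Venus High against 5.21 in Venus Low cells, and Mxd4 had 4.48 in Venus High against 4.33 in Venus Low cells. Mycn lay at the floor on both arrays, and Myc, Max and Mlxipl are not analysed here. Mycl, which encodes L-MYC and is outside the 54 genes, had 7.99 in Venus High against 4.51 in Venus Low cells (3.48, or 1.34 with the floor at 100) and was at the floor on another of its 3 probe sets. It was 1 of the 2 genes that reached a signal of 100 among 50 other basic helix-loop-helix genes, of which 35 were in the table, and the other, the coactivator gene Ncoa2, differed by 0.33. Of 15 MYC target genes, 11 were in the table, 8 had a signal of at least 100 and 2 were 2-fold or more higher, near the 21.6% of all genes. The median of the 8 was 0.28. Cad, which encodes an enzyme of pyrimidine synthesis, had 8.50 in Venus High against 6.12 in Venus Low cells (2.38, and 0 to 2.45 over its 3 probe sets), and Nme1, a nucleoside diphosphate kinase gene, had 11.39 in Venus High against 10.34 in Venus Low cells (1.05). Nop56, of ribosome assembly, differed by 0.39.

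Srebf2, which encodes the main activator of cholesterol synthesis genes, had log2 signals of 7.92 in Venus High against 7.86 in Venus Low cells. That gap of 0.06 was larger than that of 7.36% of genes, and its other probe set differed by 0.30. Srebf1 is not analysed here. Of 23 genes that SREBP factors regulate or are regulated by, 12 were in the table, 10 had a signal of at least 100 and 5 were 2-fold or more higher, where 21.6% of all genes were. The median of the 10 was 0.76. Scd2, a fatty acid desaturase gene, had 10.39 in Venus High against 8.54 in Venus Low cells (1.85), but 0.20 on 1 of its other probe sets. Fdft1, which encodes squalene synthase, had 10.15 in Venus High against 8.48 in Venus Low cells (1.67), and Sqle, which encodes squalene epoxidase, had 9.01 in Venus High against 7.75 in Venus Low cells (1.26). The other 11 genes of the list are not analysed here. Usf1, which binds the CACGTG form of the E-box, had 6.06 in Venus High against 5.63 in Venus Low cells, under a signal of 100. Mitf lay at the floor on both arrays, and Usf2, Tfeb and Tfe3 are not analysed here. Of 21 lysosome and autophagy genes, which TFEB regulates, 15 were in the table and 11 had a signal of at least 100. Of these 11, 0 were 2-fold or more higher, where 21.6% of all genes were. The median of the 11 was 0.36, and the widest gaps were in Wipi1 (0.77), Lamp2 (0.72) and Atp6v0d1 (0.69).

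**Figure D4:**
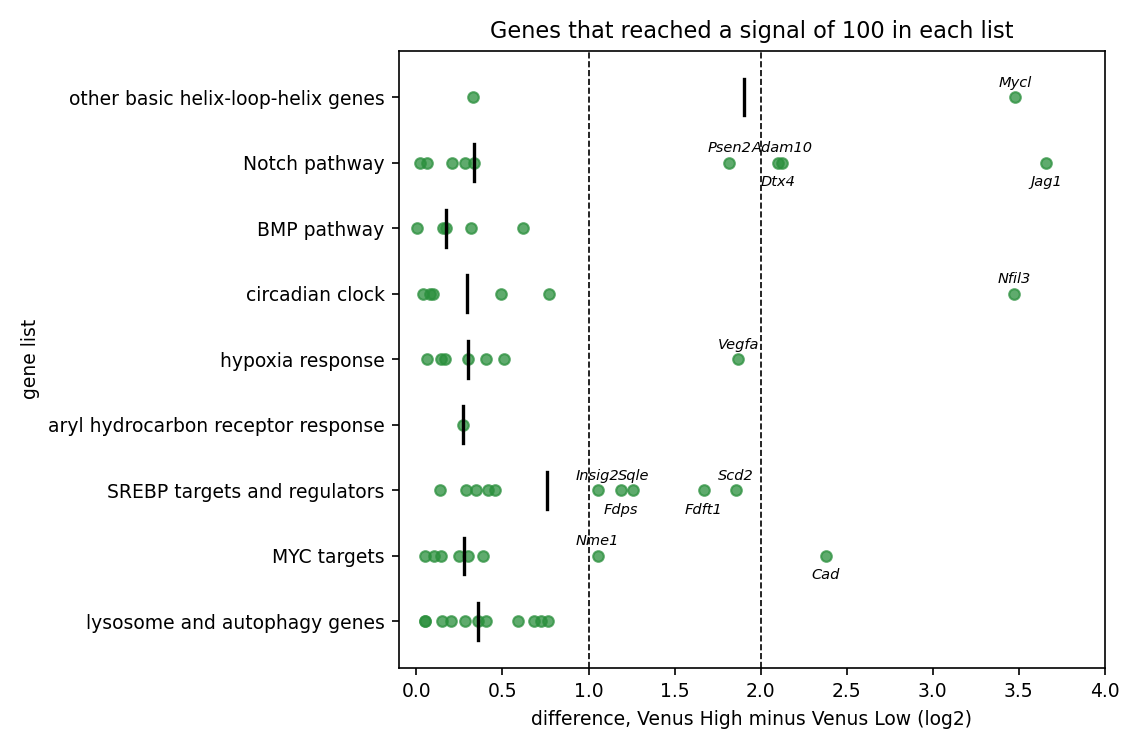
Difference between Venus High and Venus Low luminal cells (log2, horizontal axis) of the genes that reached a signal of 100 in each list of partners, regulators or targets, 1 point per gene, with the list's median as a black bar and names for genes at or above 2-fold. Dashed lines mark 2-fold and 4-fold, and Jag1, Mycl and Nfil3 lie between 3.47 and 3.66.

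Those of the 54 members that are lineage factors of muscle, nerve, blood and mesenchyme were at the floor on both arrays wherever they were in the table. A total of 22 members lay at the floor in both populations, on 32 probe sets. They included the myogenic factors Myod1 and Myf5, the neural factors Atoh1, Neurod1, Neurog1, Olig1 and Olig2, and the blood factors Tal1 and Lyl1. The mesodermal and mesenchymal factors Hand1, Hand2, Tcf21 and Twist1 were also among them, as was Ascl2, which acts in intestinal stem cells. The rest were Hes5, Hes7, Heyl, Mycn, Mitf, Npas2, Sim1 and Sim2, described above. The share of members in the table that were at the floor on both arrays was 55%, against 48.2% of all genes in it. A gene at the floor on both arrays has no difference here, and other probe sets of it are not analysed. The other 6 members under a signal of 100, Id4, Ahr, Bhlhe41, Mxi1, Mxd4 and Usf1, had log2 signals between 4.48 and 6.06 in Venus High cells and differences between 0.01 and 0.62. Twist2 is not analysed here.

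The deposited values had been normalized and centred by the authors, with no factor given, and a second scaling was tried on them. Median centring of the arrays lowers every difference by 0.65 and takes the median of all genes to -0.19. Because the table holds no negative difference, its smallest differences must then fall below 0. Among the 12 members these were Bhlhe40 (-0.01), Tcf4 (-0.31), Hes1 (-0.44) and Srebf2 (-0.60), and the same 4 were below 0 after quantile normalization, so their signs depend on the scaling and were not tested by it. Id3, Clock and Hif1a were at least 2-fold higher after centring, with differences of 5.15, 1.23 and 1.04.

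**Figure D5:**
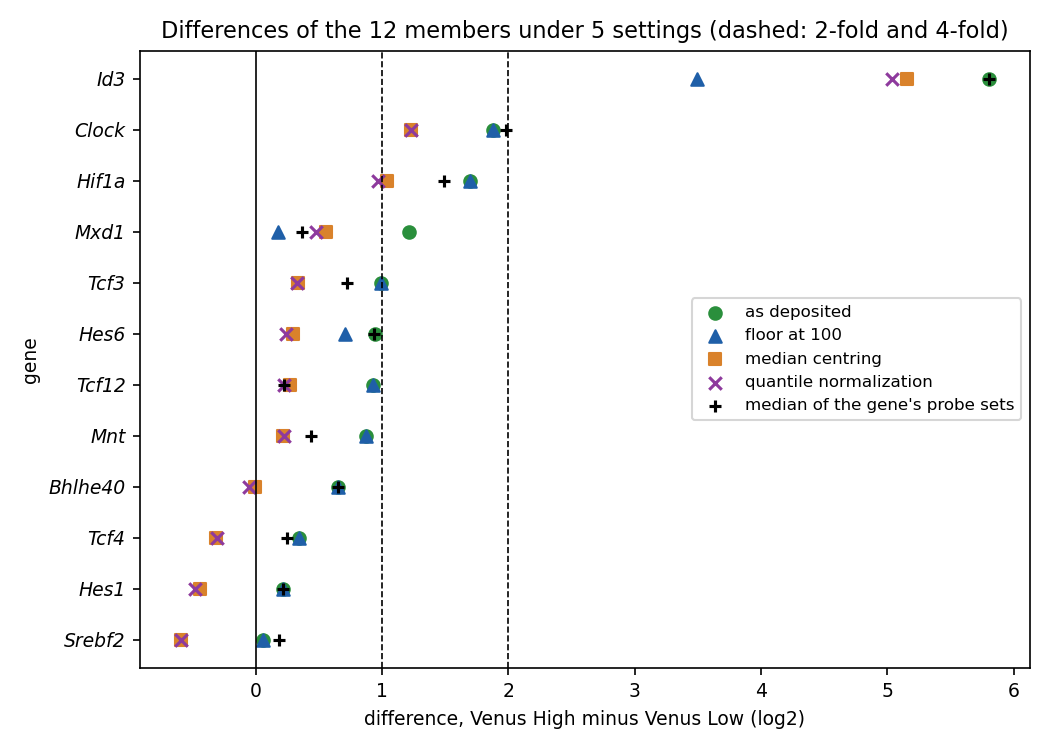
Difference between Venus High and Venus Low luminal cells (log2, horizontal axis) of the 12 members that reached a signal of 100 under 5 settings, marked by symbol, with dashed lines at 2-fold and 4-fold. Id3 lies at or above 3.49 in each of the 5 settings, and Srebf2, Hes1, Tcf4 and Bhlhe40 lie below 0 with median centring and with quantile normalization.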

How the data were processed

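For each population, labelled cRNA was made from 250 ng of total RNA (RNA integrity number above 9.4 per the labels). The deposited values are log2 signals: the authors took the log2 and then used BRB Array software for normalization and centring, and MAS5 is named in the submitters' notes. No reference or factor of that normalization is given. The number of arrays limits the precision.

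Of 29338 probe sets, 12968 were higher in Venus High cells, 16370 lay at the floor on both arrays and 0 were lower. Columns of other samples: 0. Through the platform annotation 22223 probe sets have 1 gene symbol, 602 several and 6513 none, and symbols were brought up to date by gene identifier with the RefSeq gene table (GRCm38.p6). Members occurred on 0 probe sets of several symbols. A log2 difference of 2 (4-fold) or 1 (2-fold) was needed to count a gene. Every member is named. Of each list other than the cell type markers, up to 3 genes with the largest differences are named, with a few others picked once their values were known. The cell type markers named were not picked by size of difference. The members and lists were chosen with earlier results of these data known.

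As alternatives, arrays were median-centred over probe sets that reached a signal of 100 or quantile-normalized, the floor was set to 32 or 100, genes were given the median of their probe sets or lost those of suffix _x_at, _s_at and _a_at, and the signal minimum was 50, 200 or none. Python 3.11.15 was used (numpy 2.4.6; pandas 2.3.3; matplotlib 3.10.9), and the scripts were tested on simulated data.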

Additional observations from a re-analysis of the deposited data

How the results depend on the processing

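The count of members that were 4-fold or more higher, which is Id3 alone, was 1 under all 9 alternatives. The 2-fold count was 2 under quantile normalization (Id3 and Clock, with Hif1a at 0.97). It was 3 under median centring, a floor at 100, the median over probe sets and a signal minimum of 200, in each of which Mxd1 was no longer counted. The members' median difference of 0.94 was 0.28 under median centring, 0.23 under quantile normalization and 0.00 with no signal minimum, where 22 of 40 members lie at the floor on both arrays, and moved by less than the SD between probe sets under the other 6. Over all genes, the 2-fold count of 831 was 422 under median centring, 409 under quantile normalization and 1377 with no signal minimum, and the 4-fold count of 330 was 215 under quantile normalization and 169 with a floor at 100. Hes6 has no value once probe sets of suffix _x_at, _s_at and _a_at are left out, and Tcf12 then differed by 0.23. No paired analysis was possible because each population has 1 array. Spread between animals or sorts cannot be estimated here, and the differences of Hes1 and Srebf2 lie under the SD between probe sets (0.31).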
